A study of Mus musculus with 6 samples.

Results

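Mitochondrial ribosomal protein genes were taken from the RIP-seq (RNA immunoprecipitation followed by sequencing) gene tables of freshly isolated satellite cells (fiSCs), the stem cells of skeletal muscle. A gene was a member if its symbol began with Mrpl or Mrps followed by a digit, and 5 entries whose names carry -ps were left out. The rule gave 78 genes of 55376 in the table: 49 Mrpl genes, named for the large subunit, and 29 Mrps genes, named for the small subunit. The study asked which transcripts are held by CPEB1, a protein that binds cytoplasmic polyadenylation elements (CPEs) in 3′ UTRs. It sequenced RNA precipitated with an anti-CPEB1 antibody (CPEB1 IP, 2 libraries), RNA precipitated with anti-IgG (IgG, 2 libraries) and RNA without antibody (input, 2 libraries). All 6 libraries came from muscle stem cells of C57BL/6 mice aged 3 months, with no allele or treatment named, so the groups differ by antibody alone in their labels. According to the methods, freshly isolated satellite cells were lysed for precipitation, and libraries were made with SMART-Seq2, which does not mark the strand. The libraries of a group carry replicate numbers, but the labels do not say whether they came from separate mice, so p-values measure the spread between these libraries.

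Mitochondria carry ribosomes of their own, which translate the few mRNAs encoded in mitochondrial DNA into core subunits of the respiratory chain. All proteins of these ribosomes are encoded in the nucleus, translated in the cytosol and imported, whereas their rRNAs are made inside mitochondria. Many of the proteins descend from bacterial ribosomal proteins, and others were added during the evolution of mitochondria. Quiescent muscle stem cells are known for low metabolic activity, and their mitochondrial content rises as they become activated.

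The 3′ UTRs in which CPEs were sought were short in these genes. Taking protein-coding transcripts first, the longest annotated 3′ UTR had a median of 388.5 bases in members. It was 1288 bases over the genes tested for CPEB1 IP against IgG. The motif shares below cover every annotated 3′ UTR of a gene. The search used 9 motifs on the transcript strand. The motif TTTTAT and the motif TTTTAAT are called canonical here. The other motifs were TTTTACT along with TTTTCAT, the form TTTTAAAT along with TTTTAACT, the form TTTTAAGT along with TTTTAAAGT, and lastly TTTTAATT, in which the second canonical motif is contained. They were read from a list of the study that was held only in part, so a motif named further down that list would be missed. Any of the motifs occurred in an annotated 3′ UTR of 42 of 78 members (53.8%, exact 95% interval 42.2 to 65.2%) and of 75.7% of the 10921 genes tested that have an annotated 3′ UTR, as all members do. A canonical motif occurred in 38 members (48.7%) and in 68.2% of those genes. By subunit, 26 of 49 large subunit genes and 16 of 29 small subunit genes held any motif. These are matches of letters in UTRs of unequal length and not sites shown to be bound.

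To show the motif in its context, the 30 bases around the canonical motif nearest the 3′ end are given for the 6 members that hold one among those called higher in CPEB1 IP than IgG, and for 2 members called higher than input, Mrps2 and Mrps30. The letters are RNA-sense DNA, 5′ to 3′, from GENCODE transcripts on mm10, with the motif in capitals.
Mrpl44, chr1:79781349-79781378, plus strand: cagctagatgtaTTTTATtccctccagctt
Mrpl49, chr19:6053681-6053710, minus strand: attaatgcaagtTTTTATtgagctgtatat
Mrpl50, chr4:49512647-49512676, minus strand: aatgaaattcacTTTTATgtatcactttat
Mrpl17, chr7:105803875-105803904, minus strand: acactgtacatcTTTTATtatagtgactga
Mrps17, chr5:129722489-129722518, plus strand: aatgtttgtttTTTTAATgtataaaatccc
Mrps31, chr8:22429458-22429487, plus strand: gctaaatagaaaTTTTATcaaaattctcct
Mrps2, chr2:28471132-28471161, plus strand: gaattgtactaTTTTAATatatgtttacag
Mrps30, chr13:118378860-118378889, minus strand: caaccctccaaaTTTTATtctggtctctgt
In these transcripts the motif of Mrps2 ended 29 bases before the 3′ end, and those of Mrps17, Mrpl50, Mrpl49 and Mrpl44 ended 50, 63, 71 and 79 bases before it. The motif lay farther from the end in Mrps31 (190 bases), Mrps30 (491 bases) and Mrpl17 (681 bases).

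The depth behind these genes was moderate. Counts on genes ran from 1284716 (IgG) to 4941653 (CPEB1 IP) per library, and the share of the authors' library totals that fell on genes was 39.1 to 39.5% in IgG against 69.5 to 79.8% in the other libraries. The median member had 31 and 36.5 counts in the IgG libraries, 79.5 and 96 in input, and 72.5 and 162.5 in CPEB1 IP. Replicates differed beyond sampling noise in every group, so none was a duplicate deposit. The median size of the difference between the replicates of a group, over members, was 0.13 in CPEB1 IP, 0.19 in input and 0.33 in IgG on the log2(CPM + 1) scale, CPM being counts brought to equal library size with edgeR's TMM factors. All 8 satellite cell markers were detected in all libraries, with a summed FPKM (fragments scaled to gene length and library total) of 1488 to 3194. The summed FPKM of markers of other cell types was 3.82 to 217, highest for the 3 smooth muscle genes in input (172 and 217) and lower for them in IgG (32.2 and 33.1) and CPEB1 IP (82.2 and 85.2). FPKM rest on the authors' totals, of which a smaller share fell on genes in IgG. The satellite cell markers were also lowest in IgG (1521 and 1488). On this scale, the myofibre, endothelial and fibro-adipogenic sets were highest in CPEB1 IP. The 4 myofibre markers summed to 38.9 and 50.2 FPKM in CPEB1 IP, 22.5 and 19.3 in input and 21.4 and 18.5 in IgG. The 4 endothelial markers summed to 10.7 and 11.1 in CPEB1 IP, 4.09 and 3.82 in input and 4.63 and 6.74 in IgG, and the 4 fibro-adipogenic markers to 41.7 and 41.9, 33.2 and 39.3, and 20.8 and 18.9. The 4 immune markers summed to 4.49 to 12.5 over all libraries. Of them, Ptprc was at 0 in 1 CPEB1 IP library, Ptprc and Cd3e in 1 input library and Adgre1 in the other. The part of these markers in the results was not tested.

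In input, the transcripts of these genes stood somewhat above those of the typical gene tested. Their median FPKM over both input libraries was 7.27, against 4.87 over the 12171 genes tested against input. The medians were 7.62 for the large and 6.75 for the small subunit. The highest mean belonged to Mrps28, a small subunit protein, at 46.9 and 56.6 FPKM (51.8 ± 6.86, SD, n = 2). Mrpl54, a large subunit protein without a bacterial counterpart, followed at 33.5 and 43.8 FPKM, and Mrpl28, homolog of bacterial L28, at 35.6 and 38.9 FPKM. The ranges of the last pair overlapped, so their order is not resolved. Next in rank were Mrps6, homolog of bacterial S6, with a mean of 31.6 ± 3.35 FPKM, Mrpl52 with 27.1 ± 5.03 and, after 1 further gene, Mrps7 with 24.9 ± 2.43 (SD, n = 2). At the other end, Mrpl53 had 1 count or none in each input and IgG library and 1 and 2 counts in CPEB1 IP, so it passed the filter on low counts in no comparison. Mrpl34 had 6 and 10 counts in input, 3 and 2 in IgG and 10 and 17 in CPEB1 IP, and was tested against input alone. In these bulk libraries, fewer cells of a type and less RNA per cell cannot be told apart.

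Summed over the 78 genes, the transcripts took a larger part of the CPEB1 IP libraries than of the others. On the TMM scale, the sums of CPEB1 IP were 3391 and 3417, those of IgG 2656 and 2742, and those of input 2424 and 2650. The CPEB1 IP libraries lay above all others, and the IgG and input libraries adjoined without overlap. The mean of CPEB1 IP was 1.26 times that of IgG and 1.34 times that of input. An exact two-sided permutation test of 2 against 2 libraries cannot go below p = 0.333, so these sums carry no test. The order of the controls depended on the scale. Scaled to the authors' library totals in place of counts on genes, the summed CPM came to 2218 and 2328 in CPEB1 IP, to 1716 and 2027 in input, and to 1076 and 1082 in IgG. IgG thus stood at 1.06 times input on the TMM scale and at 0.577 times input on the authors' scale, while CPEB1 IP was the highest on both.

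**Figure D1:**
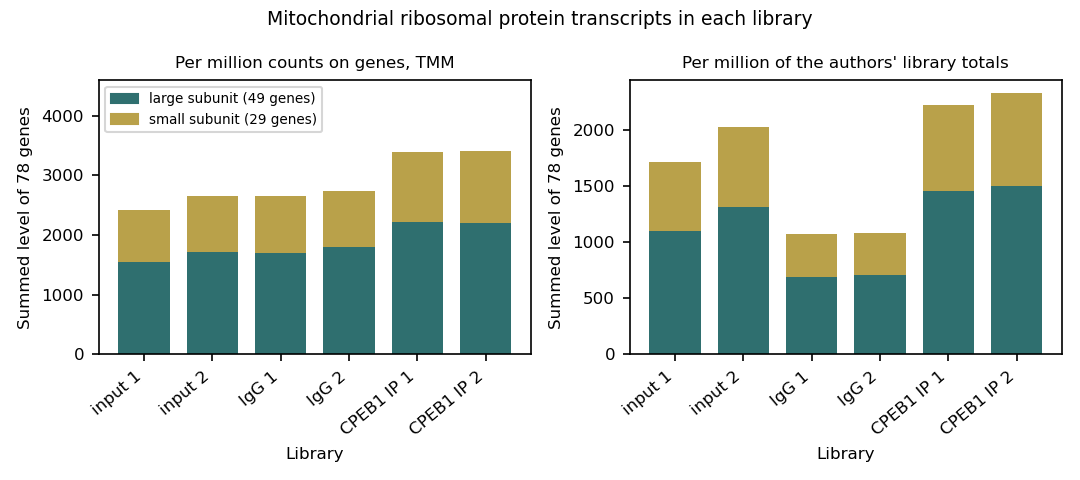
Bars give the summed CPM of the 49 large and 29 small subunit genes in each of the 6 libraries, scaled to counts on genes with TMM factors (left) or to the authors' library totals (right). CPEB1 IP is highest on both scales (3391 and 3417 on the left, 2218 and 2328 on the right), and IgG is above input on the left and below it on the right.

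The balance between subunits was much alike in all groups. Counts on large subunit genes were 1.895 and 1.82 times those on small subunit genes for CPEB1 IP, 1.78 and 1.89 times for IgG, and 1.78 and 1.85 times for input. The ranges of the groups overlapped. Relative to IgG, the mean summed CPM of CPEB1 IP was 1.27 times as high for the large and 1.25 times as high for the small subunit. Relative to input, the ratios were 1.35 and 1.32.

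CPEB1 IP against IgG addresses which transcripts the antibody enriched over unspecific precipitation. Of 76 members tested with edgeR's quasi-likelihood test, 13 were higher in CPEB1 IP (17.1%) and none was lower at a Benjamini-Hochberg adjusted p under 0.05. Over all 12124 genes tested, 14.7% were higher and 18.7% lower. The share of members called higher was thus near that of all genes, and no member was among the genes called lower. At an unadjusted p under 0.05, 20 of 76 members were higher and 1 was lower, against 19.1 and 23.2% of all genes tested. DESeq2 called 2 of 76 higher and 0 lower, against 7.05 and 7.98% of all genes, so with that tool the share of members called higher was below that of all genes. Both CPEB1 IP libraries exceeded both IgG libraries in CPM for 42 members, a pattern found in 35.8% of all genes tested, and both lay below both IgG libraries for 1 member, Mrps35, a pattern found in 30.8%. Mrps35, named after its values were seen, had 16.2 and 17.8 CPM in CPEB1 IP against 26.6 and 24.8 CPM in IgG and was not called. The fitted log2 fold change was positive for 61 of 76 members. Its median was 0.24 in the large subunit and 0.18 in the small subunit, against -0.01 over all genes tested.

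By subunit, 9 of 47 large subunit genes (19.1%) and 4 of 29 small subunit genes (13.8%) were called higher, against 14.7% of all genes tested. The strongest enrichment by log2 fold change was in Mrps31, a small subunit protein without a bacterial counterpart (chr8:22411361-22429665). It had 21.2 and 17.3 CPM in CPEB1 IP, 6.84 and 4.37 CPM in IgG, and 9.51 and 10.1 CPM in input. Its CPEB1 IP libraries stood apart from all others, with a log2 fold change over IgG of 1.69 ± 0.41 (SE, adjusted p = 0.00352). Mrpl44, a large subunit protein with a fold related to ribonuclease III (chr1:79776018-79781445), had 14.2 and 11.4 CPM in CPEB1 IP, 5.32 and 2.19 CPM in IgG, and 7.06 and 5.35 CPM in input. The IgG values rest on 7 and 3 counts. The log2 fold change was 1.67 ± 0.51 (adjusted p = 0.0142). Mrpl46 (chr7:78775236-78783531) had 31.7 and 36.7 CPM in CPEB1 IP, 15.2 and 11.7 CPM in IgG, and 14.1 and 14.5 CPM in input. IgG and input were level here on the TMM scale, and CPEB1 IP was above both, by 1.30 ± 0.28 over IgG on the log2 scale (adjusted p = 0.00146). With the authors' totals, the log2 fold change of IgG over input was -0.97, and CPEB1 IP was still above both. The span of Mrpl46 overlaps that of another member on the opposite strand, Mrps11, homolog of bacterial S11, which had 22.5 and 27.2 CPM in CPEB1 IP and 17.5 and 15.3 CPM in IgG and was not called (adjusted p = 0.154).

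Mrpl24 and Mrpl36, homologs of bacterial L24 and L36, showed another arrangement, with CPEB1 IP level with input and IgG below. Mrpl24 (chr3:87919506-87923672) had 50.4 and 48.7 CPM in CPEB1 IP and 47.9 and 47.2 CPM in input against 28.1 and 24.0 CPM in IgG. Mrpl36 (chr13:73328513-73332178) had 21.2 and 28.1 CPM in CPEB1 IP, 21.8 and 30.2 CPM in input, and 9.11 and 16.0 CPM in IgG. The log2 fold changes of CPEB1 IP over IgG were 0.86 ± 0.21 (adjusted p = 0.00403) and 0.93 ± 0.33 (adjusted p = 0.0355). Over input they were 0.11 ± 0.17 (adjusted p = 0.660) and 0.00 ± 0.24 (adjusted p = 0.990), and IgG was itself called lower than input for both genes, by -0.87 ± 0.27 (adjusted p = 0.00848) and -1.04 ± 0.37 (adjusted p = 0.0236).

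Of the remaining small subunit calls, Mrps12, homolog of the S12 protein of the decoding site (chr7:28739641-28741820), had 35.0 and 38.2 CPM in CPEB1 IP, 22.0 and 21.9 CPM in IgG, and 25.2 and 22.7 CPM in input (0.68 ± 0.24 over IgG on the log2 scale, adjusted p = 0.0346). Mrps17, homolog of S17 (chr5:129715497-129722556), had 88.7 and 88.6 CPM in CPEB1 IP, 69.1 and 44.4 CPM in IgG, and 51.9 and 66.4 CPM in input. Its CPEB1 IP libraries were level with each other and above the rest, while the IgG pair spanned the input pair on the TMM scale (0.58 ± 0.17, adjusted p = 0.0133). Mrps7, homolog of S7, which organises the head of the small subunit (chr11:115603925-115608036), had 67.8 and 72.1 CPM in input, 108 and 103 CPM in IgG, and 146 and 149 CPM in CPEB1 IP (0.42 ± 0.12 over IgG, adjusted p = 0.0124). IgG stood above input only on the TMM scale, and with the authors' totals its log2 fold change over input was -0.29. The other large subunit calls were Mrpl17, Mrpl23, Mrpl28, Mrpl49 and Mrpl50.

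Most of these calls were lost without CPEB1 IP replicate 2, the deepest library. Only Mrpl24, Mrpl46 and Mrps31 held in every fit that left out a library. DESeq2 called Mrpl46 and Mrps31. With the authors' totals as library sizes, 67 of 76 members were called higher, against 59.0% of all genes, but the median of all genes then moved to 0.80, against a median of 1.05 for the large and 0.99 for the small subunit. Input level moved with this contrast over all 12124 genes (Pearson's r = 0.575 between the log2 fold change and log2(input FPKM + 1), across genes, which are not independent replicates), and within the 76 members r was 0.0853. The part of input level in the calls was not tested.

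A second criterion, taken from the methods, was that the FPKM of CPEB1 IP be over 2 times that of IgG in each of the 2 experiments. With a pseudocount of 1, 18 of 76 members met it (23.7%), against 14.4% of all genes tested. The median log2 ratio of members was 0.92 in the first and 0.95 in the second experiment, against 0.54 and 0.61 over all genes tested. With an edgeR call added, 12 members remained (15.8%), against 12.1%. They were Mrpl17, Mrpl23, Mrpl24, Mrpl28, Mrpl36, Mrpl44, Mrpl46, Mrpl49, Mrpl50, Mrps7, Mrps12 and Mrps31, and of the 13 called members only Mrps17 was lost. When FPKM were recomputed with TMM library sizes, 2 members met both conditions. The share of all genes on that scale is not given here, so this count cannot be set against it.

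CPEB1 IP against input compares precipitated with total RNA. Here a larger share of members was called: 29 of 77 were higher in CPEB1 IP (37.7%) and 1 was lower, against 17.0% higher and 15.8% lower of 12171 genes tested. Both CPEB1 IP libraries exceeded both input libraries for 47 members (31.3% of all genes tested) and lay below both for 13 (36.0% of all genes tested). Calls fell on 18 of 48 large and 11 of 29 small subunit genes, 37.5 and 37.9%. The median log2 fold change was 0.47 for the large and 0.30 for the small subunit, against 0.00 over all genes tested. DESeq2 called 18 higher and 1 lower, against 12.0 and 10.7% of all genes, and 12 of the 29 held under every alternative tried, DESeq2 and each left-out library included. Leaving out either CPEB1 IP library lowered the number of members called. The share of all genes in those fits is not given in numbers here, so this fall is not read as a result about the members.

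**Figure D2:**
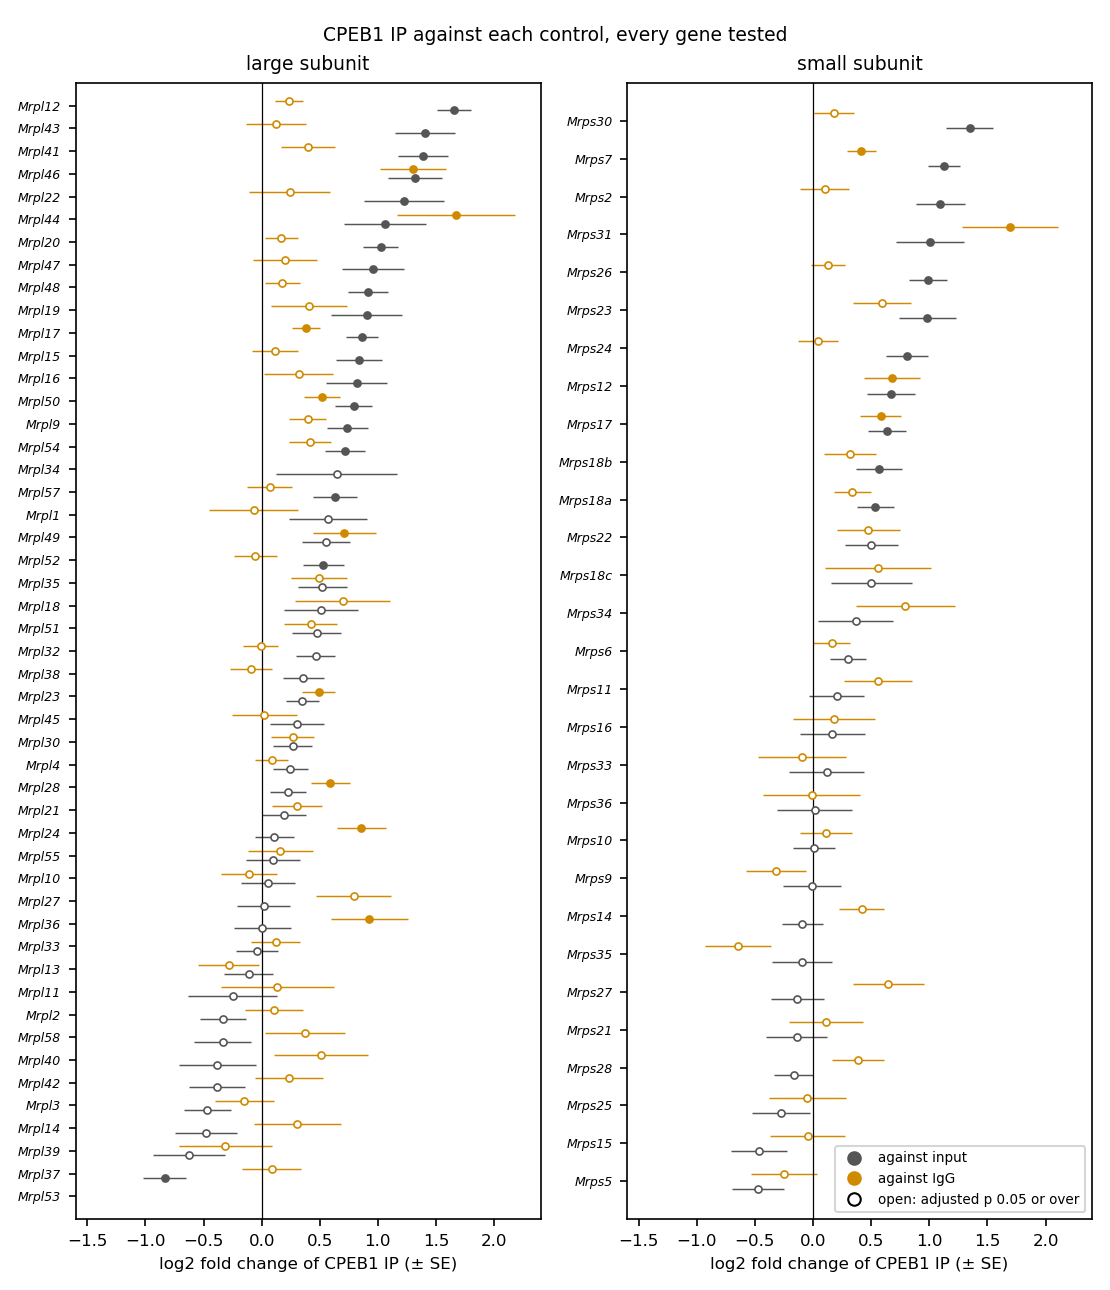
Points give the log2 fold change of CPEB1 IP against input (grey) and against IgG (orange) with its standard error for each tested gene, large subunit left and small subunit right, in order of the change against input. Filled points had an adjusted p under 0.05. Mrpl12 heads the large subunit against input at 1.66 with 0.24 against IgG, whereas Mrpl46, Mrpl44 and Mrps31 are above 1 against both controls.

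Mrpl12, which forms the flexible stalk that recruits translation factors (chr11:120484613-120489065), led this comparison. It had 49.1 and 50.1 CPM in input, 123 and 122 CPM in IgG, and 146 and 155 CPM in CPEB1 IP. On the TMM scale, both precipitates were far above input, and CPEB1 IP was a little above IgG. The log2 fold change over input was 1.66 ± 0.15 in CPEB1 IP (adjusted p = 8.54e-06) and 1.30 ± 0.19 in IgG (adjusted p = 1.11e-06), and CPEB1 IP over IgG was 0.24 ± 0.12 (adjusted p = 0.139). With the authors' totals, IgG over input was 0.43 and no longer called, and CPEB1 IP over IgG was 1.04. Mrpl43, a large subunit protein without a bacterial counterpart (chr19:45004829-45006442), had 10.4 and 11.0 CPM in input, 20.5 and 27.7 CPM in IgG, and 26.2 and 28.5 CPM in CPEB1 IP. The IgG and CPEB1 IP ranges overlapped. The log2 fold changes over input were 1.41 ± 0.26 (adjusted p = 0.00122) in CPEB1 IP and 1.16 ± 0.38 (adjusted p = 0.0121) in IgG. Mrpl41, also without a bacterial counterpart (chr2:24974117-24975098), had 15.3 and 16.7 CPM in input, 22.8 and 35.7 CPM in IgG, and 41.7 and 39.6 CPM in CPEB1 IP (1.39 ± 0.22 over input, adjusted p = 0.000425). On the TMM scale IgG lay between the other groups with a wide spread, whereas with the authors' totals its log2 fold change over input was -0.012.

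The small subunit list was headed by Mrps30 (chr13:118378381-118387252), whose protein is built into the large subunit despite its name. It had 23.3 and 32.7 CPM in input, 56.2 and 59.0 CPM in IgG, and 76.7 and 62.1 CPM in CPEB1 IP. Over input, the log2 fold change was 1.35 ± 0.20 in CPEB1 IP (adjusted p = 0.000335) and 1.04 ± 0.25 in IgG (adjusted p = 0.00105). Mrps7 came next at 1.13 ± 0.14 (adjusted p = 8.96e-05), with IgG over input at 0.59 ± 0.19 on the TMM scale (adjusted p = 0.0118). Mrps2, homolog of bacterial S2 (chr2:28468066-28471178), had 24.2 and 20.8 CPM in input, 49.4 and 34.2 CPM in IgG, and 41.2 and 50.8 CPM in CPEB1 IP, with overlap between the precipitates. Its log2 fold changes over input were 1.10 ± 0.21 in CPEB1 IP (adjusted p = 0.00178) and 0.89 ± 0.29 in IgG (adjusted p = 0.0124). With the authors' totals, the log2 fold change of IgG over input was 0.015 for Mrps2 and 0.15 for Mrps30, and neither was called.

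The member called lower was Mrpl37, a large subunit protein without a bacterial counterpart (chr4:107055874-107066868). It had 59.8 and 52.6 CPM in input, 29.6 and 31.2 CPM in CPEB1 IP, and 21.3 and 33.5 CPM in IgG. Both precipitates were below input, and the IgG range enclosed that of CPEB1 IP. The log2 fold change over input was -0.83 ± 0.18 in CPEB1 IP (adjusted p = 0.00435), a call lost without CPEB1 IP replicate 1, and -1.04 ± 0.26 in IgG (adjusted p = 0.0017).

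**Figure D3:**
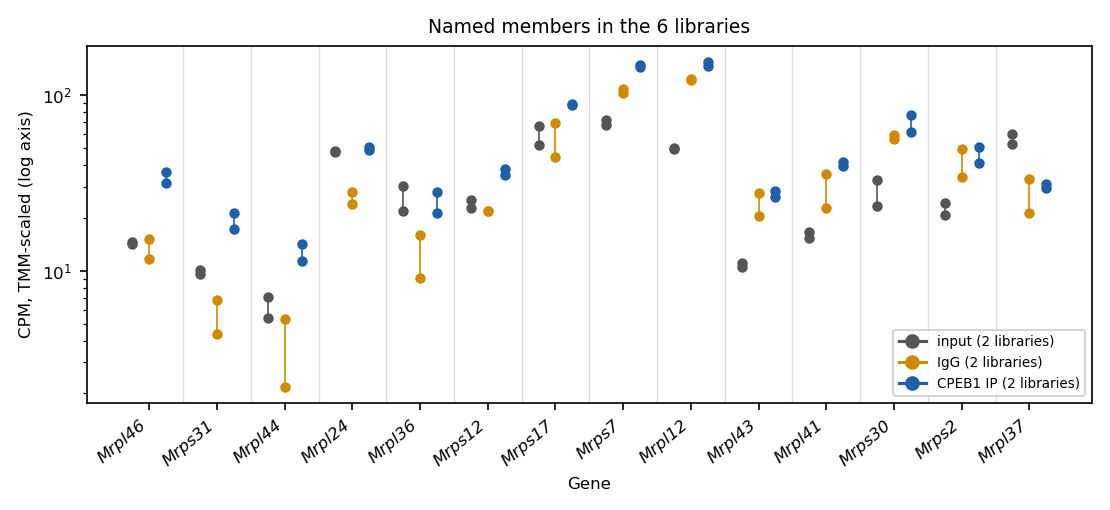
Each point is the TMM-scaled CPM of a gene in a library, on a log axis, with the 2 libraries of a group joined by a line. In Mrpl46, Mrps31 and Mrpl44 the CPEB1 IP libraries lie above input and IgG, and in Mrpl12, Mrpl43, Mrps30 and Mrps2 both precipitates lie above input (Mrpl12 at 122 to 155 CPM against 49.1 and 50.1 CPM).

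IgG against input shows what precipitation without the CPEB1 antibody did to these transcripts. Of 76 members tested, 10 were higher and 6 lower in IgG, against 21.4% higher and 19.4% lower of 12980 genes tested. In each subunit 5 genes were higher and 3 lower, and the median log2 fold change was -0.07 for the large and -0.09 for the small subunit, against 0.03 over all genes tested. The higher group was Mrpl12, Mrpl20, Mrpl41, Mrpl43, Mrpl48, Mrps2, Mrps7, Mrps24, Mrps26 and Mrps30. With the authors' totals as library sizes none of 76 was higher and 51 were lower, against 8.54 and 55.3% of all genes, with the median of all genes at -0.85, and the log2 fold change of Mrpl20, Mrpl41, Mrpl48, Mrps7, Mrps24 and Mrps26 turned negative. The lower group was Mrpl24, Mrpl36, Mrpl37, Mrps14, Mrps27 and Mrps28. Mrps27, a pentatricopeptide repeat protein, had 29.5 and 26.1 CPM in input against 15.2 and 14.6 CPM in IgG, with 27.5 and 22.1 CPM in CPEB1 IP (-0.90 ± 0.34 for IgG, adjusted p = 0.0328). Mrps28, the gene with the highest input FPKM, had 51.9 and 57.9 CPM in input, 25.1 and 43.7 CPM in IgG, and 45.0 and 48.9 CPM in CPEB1 IP (-0.67 ± 0.26 for IgG, adjusted p = 0.0346). The 3 comparisons share libraries, so the values of a gene in them are not independent of each other.

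**Figure D4:**
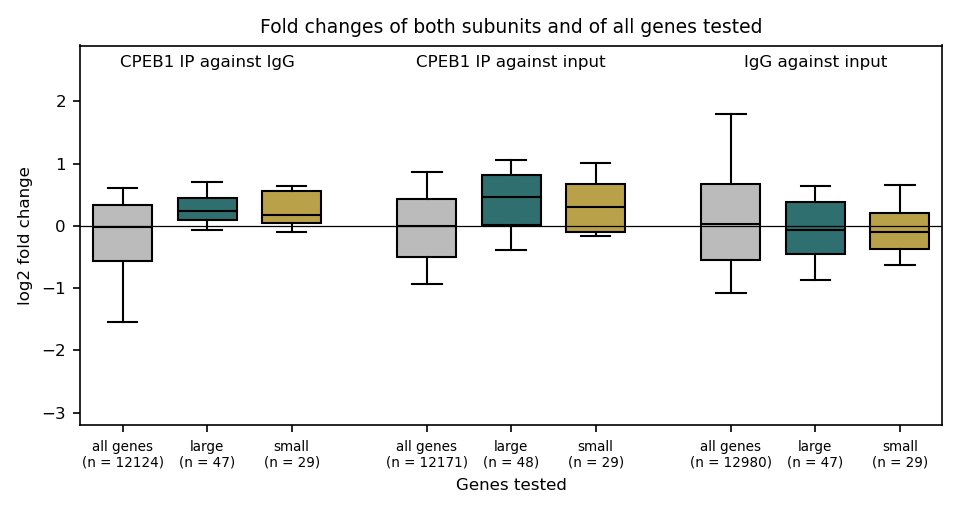
Boxes give the quartiles and median of the log2 fold change over all genes tested (grey), large subunit genes (green) and small subunit genes (ochre) in the 3 comparisons, with whiskers from the 10th to the 90th percentile. The medians of both subunits lie above those of all genes for CPEB1 IP (0.24 and 0.18 against -0.01 over IgG, 0.47 and 0.30 against 0.00 over input) and just below for IgG over input.

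Mrpl11, part of the base of the stalk and named in the study for its protein, was low and variable here. It had 10.4 and 5.78 CPM in CPEB1 IP, 7.60 and 5.83 CPM in IgG, and 9.51 and 9.45 CPM in input, and the ranges overlapped. The log2 fold change was 0.13 ± 0.48 over IgG (adjusted p = 0.865) and -0.25 ± 0.38 over input (adjusted p = 0.649), on 8 to 31 counts per library, and neither passed the threshold. The paralogs Mrps18a, Mrps18b and Mrps18c descend from bacterial S18, and the protein of Mrps18a lies in the large subunit. Mrps18a had 72.1 and 77.6 CPM in CPEB1 IP against 58.5 and 55.4 CPM in IgG and 50.6 and 56.7 CPM in input, and was called higher than input (0.54 ± 0.16, adjusted p = 0.0202), a call lost with DESeq2, with the authors' totals, without the filter and without either CPEB1 IP library. Mrps18b had 39.2 and 41.1 CPM in CPEB1 IP, 26.6 and 35.0 CPM in IgG, and 25.8 and 30.5 CPM in input, with CPEB1 IP above both controls and the controls overlapping (0.57 ± 0.20 over input, adjusted p = 0.0427). That call was lost with DESeq2 (adjusted p = 0.151), with the replicate block (adjusted p = 0.0658), in the joint fit, with counts on genes or the authors' totals as library sizes, without the filter and with 3 of the 4 libraries left out in turn. Mrps18c was lower and not called in either comparison, with 14.2 and 9.50 CPM in CPEB1 IP, 4.56 and 10.2 CPM in IgG, and 8.29 and 8.50 CPM in input. Reads of such paralogs could be divided between them by the counting, whose treatment of multiply mapped reads is not given in the sources used here.

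Calls fell on genes of both origins. Of homologs of bacterial ribosomal proteins, 8 of 46 tested were higher in CPEB1 IP than IgG (17.4%) and 16 of 47 higher than input (34.0%). Of the genes without a bacterial counterpart, 5 of 30 were higher than IgG (16.7%) and 13 of 30 higher than input (43.3%). Over all genes tested, 14.7% were higher than IgG and 17.0% higher than input, so the shares over IgG were near that of all genes. The assignment was made by hand from general knowledge of ribosomal protein families and carries no test. When Mrps30 and Mrps18a were counted with the large subunit, where their proteins lie, the large subunit had a median log2 fold change over input of 0.49 and the small subunit of 0.20, with 20 of 50 and 9 of 27 genes called higher.

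CPE motifs were found in some of the enriched members and not in others. Any motif was present in 6 of the 13 members higher than IgG (46.2%) and in 17 of the 29 higher than input (58.6%), beside the 53.8% of all members. The median log2 fold change over IgG was 0.18 in the 41 tested members with a motif and 0.34 in the 35 without, and over input it was 0.51 and 0.33. Over all genes tested against IgG, the medians were -0.01 with a motif and 0.15 for genes with an annotated 3′ UTR and no motif. Mrpl46, Mrpl24, Mrpl36, Mrps12 and Mrps7, all higher than IgG, and Mrpl12, Mrpl43 and Mrpl41, all higher than input, held none of the 9 motifs in their annotated 3′ UTRs.

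Transcript length and overlap with other genes bear on these counts. The median gene length of members was 2394 bases, against 4412 over the genes tested against input. Over the 76 members, the log2 fold change over IgG had a correlation across genes of r = -0.313 with log2 gene length (Spearman's rho -0.302), given as a description. Over all 12124 genes tested, r was -0.194 and rho -0.278. The span of 42 of the 78 members overlaps that of another gene on some strand, among them 7 of the 13 called higher than IgG and 16 of the 29 called higher than input. Mrpl44 overlaps Wdfy1, Mrpl12 overlaps Gm16755, Mrpl43 overlaps Twnk (the mitochondrial DNA helicase), Mrpl36 overlaps Ndufs6 (a complex I subunit) and Mrps7 overlaps Gga3 and Mif4gd. As the libraries do not mark strand, reads from the shared stretches cannot be told apart.

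Another 43 genes of mitochondrial translation lie outside the naming rule. Against IgG, 1 of 38 tested was higher in CPEB1 IP (2.63%) and 2 were lower (5.26%), against 14.7 and 18.7% of all genes tested. Against input, 6 of 39 were higher (15.4%) and 1 was lower (2.56%), against 17.0 and 15.8% of all genes tested. Tufm, the mitochondrial elongation factor Tu, was the gene called higher than IgG, with 53.7 and 51.2 CPM against 32.7 and 32.0 CPM (log2 fold change 0.63 ± 0.20, adjusted p = 0.0185). Mettl17, a mitoribosome assembly factor, was lower than IgG (-1.15 ± 0.41, adjusted p = 0.0356). Among the 5 ribosomal proteins with other symbols, Ptcd3, Aurkaip1 and Chchd1, all of the small subunit, were higher than input. Ptcd3 had 105 and 109 CPM in CPEB1 IP, 53.7 and 51.3 CPM in input, and 141 and 123 CPM in IgG. It thus lay above input in both precipitates and was the other gene called lower in CPEB1 IP than in IgG (-0.36 ± 0.13, adjusted p = 0.0321). None of these 3 calls over IgG held with DESeq2, at adjusted p = 0.150 for Tufm, 0.179 for Mettl17 and 0.221 for Ptcd3. Tfb2m, which opens mitochondrial promoters for transcription, was highest over input (1.26 ± 0.18, adjusted p = 0.000287), and Mettl15, a methyltransferase of the small rRNA, was the gene lower than input (-1.19 ± 0.34, adjusted p = 0.0165). In IgG against input, 5 of 40 were higher (12.5%) and 3 were lower (7.5%), against 21.4 and 19.4% of all genes tested. Ahead were Tfb1m, the small rRNA dimethyltransferase (1.55 ± 0.62, adjusted p = 0.0425), and Ptcd3 (1.32 ± 0.19). Tfb1m rests on 9 and 6 counts in IgG and 8 and 4 in input. The lower genes were led by Mtg1, an assembly GTPase (-1.46 ± 0.55), with 8 and 3 counts in IgG, and Gfm1, an elongation factor (-1.01 ± 0.33). With DESeq2 the adjusted p was 0.277 for Tfb1m, 0.190 for Mtg1, 0.0891 for Gfm1 and 1.15e-06 for Ptcd3.

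**Figure D5:**
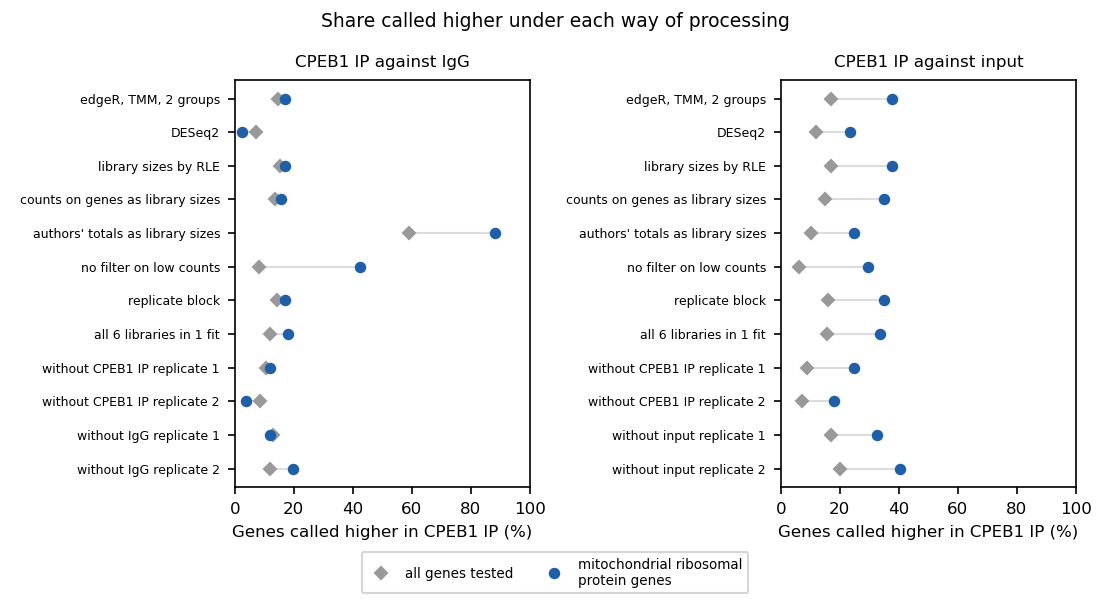
Points give the percentage of mitochondrial ribosomal protein genes (blue) and of all genes tested (grey diamonds) called higher in CPEB1 IP under each way of processing, against IgG (left) and against input (right). Against input the genes stay above all genes in every setting drawn, and against IgG they cross it (17.1% against 14.7% with edgeR and TMM, and below it with DESeq2 and without either CPEB1 IP replicate 2 or IgG replicate 1).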

How the data were processed

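RIP-seq libraries of fiSCs (2 CPEB1 IP, 2 IgG, 2 input) were grouped by their labels. The authors mapped reads to mm10 with HISAT and counted them on genes with featureCounts, and the deposited counts were not normalized. The deposited FPKM were computed by the authors from the count, the summed exon length of the gene and a library total above the counts on genes. Annotation release, strand setting and treatment of multiply mapped reads are not given in the sources used here. In R 4.3.3 with edgeR 4.0.16, genes were filtered with filterByExpr, scaled by TMM and compared 2 groups at a time with the quasi-likelihood test without a replicate term, with Benjamini-Hochberg adjustment over all genes tested at 0.05. The standard error is the size of the log2 fold change divided by the square root of F. The procedure was also run on simulated counts with known changes and a common dispersion for all genes, and its recovery is not reported here. DESeq2 1.42.0 was the other count test. CPM are scaled by TMM factors over all 6 libraries. Intervals are exact binomial and cover counting error only. Remaining steps used Python 3.11.15 with pandas 2.3.3, scipy 1.17.1 and matplotlib 3.10.9. For CPEs, all 78 members were matched to GENCODE transcripts on mm10 by symbol or position.

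Members, lists and tests were chosen with earlier results of these data known. Genes were named by rule: in each subunit and direction the called members with the largest log2 fold change (up to 4 where CPEB1 IP met IgG, 3 where it met input, 2 where IgG met input, mean FPKM over 1), the 3 highest in input, Mrpl11 and the Mrps18 paralogs, every member not tested, and, of the other mitochondrial translation genes, up to 2 per direction and comparison. Alternatives were another count test, library sizes, no filter on low counts, a replicate block, a joint fit and each library left out.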

Additional observations from a re-analysis of the deposited data

How the results depend on the processing

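The counts of called members differed between tools and scales, and with 2 libraries a group the adjusted p-values rest on few degrees of freedom. In CPEB1 IP against IgG, the 13 higher members became 2 with DESeq2, 67 with the authors' totals as library sizes and 33 without a filter on low counts, and 3 to 15 when a library was left out, with no lower call in any of these fits. In CPEB1 IP against input, the 29 higher became 18 with DESeq2, 19 with the authors' totals and 14 to 31 with a library left out, and the 1 lower became 3 with the authors' totals and 0 to 4 with a library left out. In IgG against input, the 10 higher became 6 with DESeq2, 0 with the authors' totals, 1 without the filter and 4 to 9 with a library left out, and the 6 lower became 1, 51, 11 and 1 to 7, and 11 with all 6 libraries in the same fit. The 12 members that met the FPKM ratio and the edgeR call became 4 with a pseudocount of 5, 2 with DESeq2 and 2 with TMM library sizes, and 12 to 13 with a single experiment. The cause was not tested in any of these. A count without the share of all genes beside it is not a result about the members. Other size factors (RLE), counts on genes as library sizes and leaving out Mrps36, an alternative chosen after seeing the data because its protein is held to belong to another complex, moved no count by over 1.5 times. Counting Mrps30 and Mrps18a with the large subunit was also chosen after seeing the data.

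Same-numbered libraries shared little deviation from their group means. The correlations over 14276 genes were -0.0206 for CPEB1 IP and input, -0.0107 for CPEB1 IP and IgG and 0.0324 for input and IgG. These values cannot show whether such libraries were prepared together. According to the methods, each CPEB1 IP sample was normalized to the IgG sample of its experiment. With the replicate block, 13 members were higher and 0 lower than IgG, 27 higher and 1 lower than input, and 10 higher and 8 lower in IgG against input.

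The sign of some single genes turned. For Mrpl11, leaving out a library gave log2 fold changes from -0.24 to 0.59 over IgG and from -0.65 to 0.15 over input. Ptcd3 in CPEB1 IP against IgG was 0.45 with the authors' totals and 0.038 without the filter. With the authors' totals, IgG against input became -0.14 for Mrpl20, -0.012 for Mrpl41, -0.27 for Mrpl48, -0.22 for Mrps24, -0.13 for Mrps26 and -0.29 for Mrps7. Members had a median of 31 and 36.5 counts in the IgG libraries, the lowest of the groups, and the part of depth in the calls over IgG was not tested.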
